A study of Homo sapiens with 6 samples.

Results

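Interferon-stimulated genes were examined one by one in RNA-seq of K562 cells, a human leukemia cell line grown in suspension. The set held 9 genes (ISG15, IFIT1, IFIT2, IFIT3, IFI6, IFI27, OAS3, IRF9 and DDX58) of the 57150 in the deposited table. They were chosen by symbol, and each matched 1 row. The study asked how the RNA-binding proteins αCP1 and αCP2, encoded by PCBP1 and PCBP2, shape splicing. By the labels, 3 libraries came from cells given siRNAs against both proteins (αCP1/2 siRNA) and 3 from cells given control siRNAs, all collected 72 h after transfection. Both groups are transfected pools of this 1 line with no other allele or drug named, and there was no untransfected sample. By the paper, each control pool had its own siRNA, and more than 1 αCP1/2 siRNA was used. It describes control siRNAs against an unrelated mRNA (GLD-2) and a non-targeting one. Some libraries of each group came from the authors' earlier study, and the others were added. The table gave 1 FPKM value (fragments mapped to a gene, scaled by transcript length and sequencing depth) and 1 estimated count per gene and group, in columns labelled KD and CTRL. With 1 value per group, no difference below has a replicate check, and none was tested.

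The totals of the estimated counts were 13699340 (KD) and 11680567 (CTRL). Each is below the number of mapped pairs that the paper lists for any single library. The targeted genes did not separate the columns in the direction of their names: PCBP1 was at 184 FPKM in KD and 188 in CTRL, and PCBP2 was at 531 and 342. The paper reports loss of both in the depleted cells by mRNA and by protein, with a Western blot shown. Why the RNA values of the columns differ from that was not tested. Of 15 erythroid and K562 markers, 7 were listed at 0 in both columns (among them GATA1, TAL1, KLF1, LYL1, HBZ and ALAS2), and 2 were above 5 FPKM in both. The whole erythroid list summed to 297 FPKM in KD and 112 in CTRL, mostly from HBE1 (153 and 35.4) and TFRC (134 and 65.7). Of the rest with a mean of at least 1 FPKM, HBG2 was higher in KD, and EPOR and CD33 were lower. Of 8 epithelial markers, 4 were above 5 FPKM in both columns, with sums of 4370 and 3190. The lymphoid and monocyte list, with 5 of 8 markers at 0 in both, summed to 4.54 and 7.09, and the fibroblast list, with 2 of 6 at 0, summed to 13.1 and 7.08. The columns are therefore named below by their labels alone, and the part of these differences in the members' ratios was not tested. In bulk RNA, fewer cells of a type and less RNA per cell cannot be told apart.

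Interferons are secreted proteins that cells make on sensing viral nucleic acid. Type I interferon binds the receptor chains IFNAR1 and IFNAR2, and the kinases JAK1 and TYK2 then pass the signal to the factor ISGF3, of which IRF9 and STAT2 are subunits. ISGF3 binds the interferon-stimulated response element (ISRE) in the promoters of many antiviral genes, and the gamma-activated site (GAS) is another interferon-responsive motif.

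The 9 members cover sensing, signalling and effector steps of that pathway. DDX58 encodes RIG-I, the cytoplasmic sensor of viral RNA, and IRF9 is the DNA-binding subunit of ISGF3. OAS3 makes 2′-5′ oligoadenylates, an antiviral second messenger, and IFIT1, IFIT2 and IFIT3 are related proteins, of which IFIT1 binds the 5′ ends of foreign RNA. ISG15 is a ubiquitin-like protein that is conjugated to other proteins. IFI6 and IFI27 are small membrane proteins of 1 family.

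Stretches of the members' promoters are shown here because they hold matches to the motifs named above. Whether the pathway acts on these genes through them was not measured. RefSeq windows (GRCh38.p14, from 250 bases before to 50 after the start site) were present for 8 of the 9 members, all but IFIT2. The ISRE core was searched on both strands as GAAANNGAAA, and the GAS as TTCNNNGAA, which reads the same on either strand. Capitals mark ISRE cores, and in IRF9 the GAS. Each sequence is written 5′ to 3′ along the gene's strand, and was placed on GRCh37 by an exact match found once.
ISG15, chr1:948742-948801, plus strand: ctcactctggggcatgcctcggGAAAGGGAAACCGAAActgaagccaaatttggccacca
IFIT1, chr10:91152245-91152304, plus strand: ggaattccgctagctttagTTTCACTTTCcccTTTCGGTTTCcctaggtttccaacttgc
IFIT3, chr10:91087590-91087649, plus strand: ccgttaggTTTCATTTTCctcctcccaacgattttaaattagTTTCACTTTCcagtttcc
IFI6, chr1:27998773-27998832, minus strand: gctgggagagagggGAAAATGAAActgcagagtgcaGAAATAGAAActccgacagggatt
IFI27, chr14:94576955-94577014, plus strand: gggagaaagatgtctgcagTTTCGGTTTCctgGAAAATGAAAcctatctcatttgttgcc
OAS3, chr12:113376249-113376278, plus strand: gttcggagagccgggcggGAAAACGAAAcc
IRF9, chr14:24630385-24630444, plus strand: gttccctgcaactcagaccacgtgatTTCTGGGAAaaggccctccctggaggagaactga

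The ISRE core was in the windows of 6 of the 8 members (ISG15, IFIT1, IFIT3, IFI6, IFI27 and OAS3), against 4.38% of the 27305 genes with a window. The GAS was in 2 of the 8, IFI27 and IRF9, against 9.38% of genes. The run of capitals in ISG15 is a pair of ISRE cores that overlap, at -113 to -104 and -107 to -98 bases from the start. In IFIT1 the cores lay at -116 to -107 and -103 to -94, on the opposite strand. IFIT3 has 2 start sites in the table, each with 2 cores, and the stretch shown belongs to the first, with cores at -156 to -147 and -122 to -113. IFI6 had 3 cores, of which the stretch shows those at -115 to -106 and -93 to -84. IFI27 has 2 start sites that share the printed stretch, where the cores sit on opposite strands and a GAS overlaps both. OAS3 had cores at -143 to -134 and -12 to -3, of which the second is shown. All 30 bases of that printed stretch lie within OAS3 exons in GENCODE, although they precede the RefSeq start. The GAS of IRF9 lay at -63 to -55, and neither motif was in the DDX58 window. A match is a description of these letters and not a measured binding site.

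**Figure D1:**
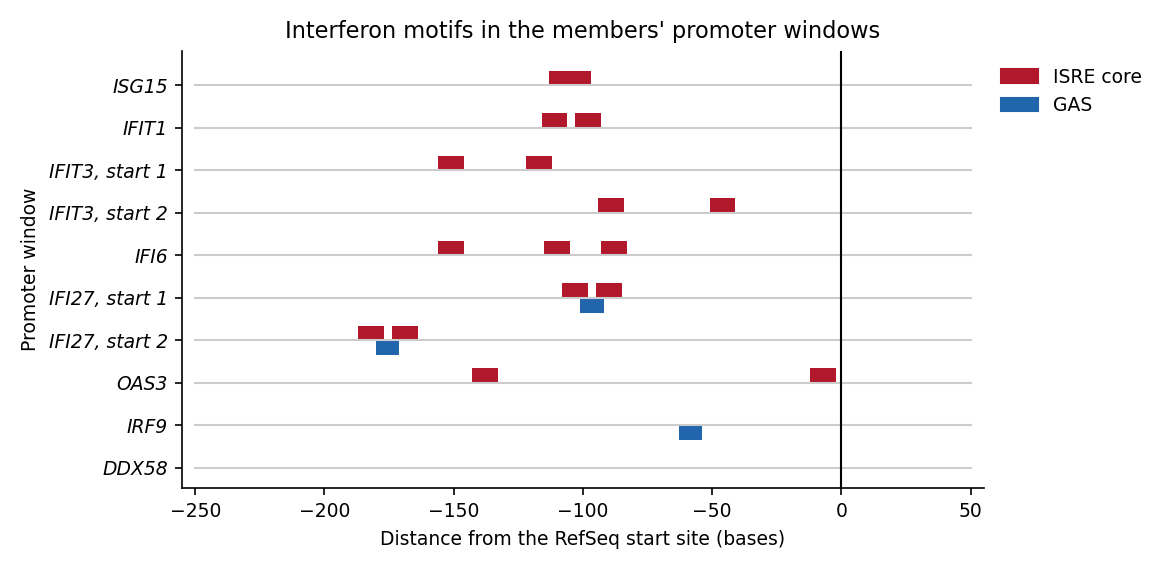
Positions of ISRE core and GAS matches in each member's promoter windows, with distance from the RefSeq start site in bases on the horizontal axis. Matches stand in the windows of 7 of the 8 members with a window, and the DDX58 row is empty.

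On GRCh37 with GENCODE release 44, IFIT2, IFIT3 and IFIT1 lie in this order in 1 cluster on the plus strand of chromosome 10, with IFIT1B between IFIT3 and IFIT1, at chr10:91043451-91069028, chr10:91087064-91137230 and chr10:91152303-91166244. ISG15 (chr1:936518-949920, plus) and IFI6 (chr1:27992575-27998723, minus) are both on chromosome 1. IRF9 (chr14:24630443-24637252) and IFI27 (chr14:94571182-94583032) are on the plus strand of chromosome 14. OAS3 lies at chr12:113375856-113414265 on the plus strand, and DDX58 at chr9:32455300-32526206 on the minus strand. The library kit did not mark strand, so reads from overlapping exons cannot be assigned by strand. DDX58 shares 43.2% of its exon bases with a same-strand gene (ENSG00000288684) that has no row in the table, and IRF9 shares 23.9% with ENSG00000259529, which was given 7.02 and 15.7 counts. These 2 members are uncertain to that extent. IFI6 shares 23.1% with LINC02574, listed at 0 counts in both columns, and IFIT2 shares 12.1% with a same-strand lncRNA given 0 and 2 counts. IFIT2 and IFIT3 share 1.5% and 1.9% of their exon bases with LIPA on the other strand.

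All 9 members were above 0 in both columns, and their levels spanned a wide range. ISG15 was the highest in each, at 86.4 FPKM in KD and 27.2 in CTRL. By level it ranked 1553rd of the 57150 genes in KD and 3749th in CTRL. In KD the order of the others was IFI6, OAS3, IRF9, IFIT3, IFIT1, IFIT2, DDX58 and IFI27. The exact 95% Poisson intervals of neighbours in that order overlapped for IFIT3 with IFIT1 and for DDX58 with IFI27, and for no other pair. In CTRL the order after ISG15 was OAS3, IFIT3, IRF9, IFI6, IFIT1, IFIT2, DDX58 and IFI27. There the intervals of IFIT3 and IRF9, of IRF9 and IFI6, and of IFI6 and IFIT1 overlapped. The 9 FPKM values summed to 132 in KD, of which ISG15 made up 65.4%, and to 84.1 in CTRL, of which it made up 32.3%. Their counts went the other way in sum, 2028 in KD and 2282 in CTRL. These intervals, and all below, cover counting error only and not the spread between cultures. They take the estimated counts as read counts, and how these relate to the sequenced reads is not known.

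**Figure D2:**
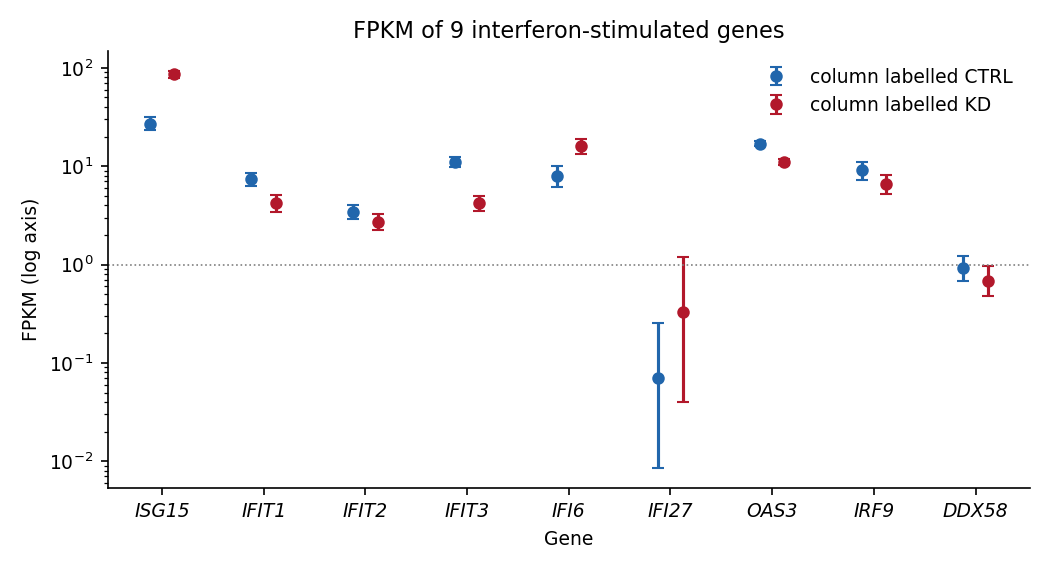
FPKM of each of the 9 members on a log axis in the columns labelled KD and CTRL, 1 point per column, with bars for the exact 95% Poisson interval of the estimated count. ISG15 and IFI6 stand higher in KD, and IFIT1, IFIT3 and OAS3 stand higher in CTRL with bars that do not overlap.

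Each member is given first as FPKM and count, and then as a log2 ratio of KD to CTRL on the FPKM + 1 scale, which understates the ratio of low genes. Its interval comes from the share of each column's total count, expressed relative to the median gene. That step is needed because the median log2 ratio of the 13741 genes with a mean of at least 1 FPKM was 0.01 on the FPKM scale and -0.21 on the count-share scale. Of the 9 members, 7 passed that filter, and IFI27 and DDX58 did not.

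DDX58, the RNA sensor, was at the low end in both columns. It was at 0.688 FPKM (34 counts) in KD and 0.924 (48 counts) in CTRL, and the Poisson intervals of 0.476 to 0.961 and 0.681 to 1.22 overlapped. Its log2 ratio was -0.19. Relative to the median gene its count share gave -0.52 (95% interval -1.20 to 0.14). A difference in DDX58 was not detectable from these estimated counts.

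IRF9, the ISGF3 subunit, was lower in KD by a margin within counting error. It was at 6.58 FPKM (78.5 counts) in KD and 9.13 (91.4 counts) in CTRL, a log2 ratio of -0.42. The count share relative to the median gave -0.24, with an interval of -0.70 to 0.21. The FPKM per count of IRF9 also differed between columns, at 0.839 times as much in KD, while the median over genes was 0.997. Its FPKM difference was thus larger than its count difference relative to the median gene.

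OAS3, the oligoadenylate synthetase, was lower in KD and had the most counts of the set. It was at 11.02 FPKM (887 counts) in KD and 17.0 (1275 counts) in CTRL, with intervals of 10.3 to 11.8 and 16.1 to 17.97 that did not overlap. The log2 ratio was -0.58, or 1.54-fold lower. Relative to the median gene the interval was -0.67 to -0.42.

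The 3 IFIT genes of the chromosome 10 cluster were all lower in KD but by unequal amounts. IFIT3 was at 4.22 FPKM (121 counts) in KD and 11.1 (320 counts) in CTRL, a log2 ratio of -1.21 or 2.63-fold lower. It stood 243rd from the lowest ratio among the 13741 genes, with an interval relative to the median of -1.74 to -1.12.

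IFIT1, the RNA 5′-end binding member of the family, came next. It was at 4.21 FPKM (94.0 counts) in KD and 7.37 (161 counts) in CTRL. The log2 ratio was -0.68 on the FPKM scale. By plain count share (not relative to the median gene) it was -1.01, past 2-fold, and relative to the median -0.80, within 2-fold. Its interval relative to the median was -1.18 to -0.42.

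IFIT2, the third of the cluster, differed least. It was at 2.73 FPKM (114 counts) in KD and 3.45 (144 counts) in CTRL, with a log2 ratio of -0.26. The intervals of its levels, 2.25 to 3.27 and 2.91 to 4.06, overlapped. Relative to the median gene the interval was -0.73 to 0.0053.

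ISG15, the ubiquitin-like modifier, differed most in the other direction. It was at 86.4 FPKM (567 counts) in KD and 27.2 (177 counts) in CTRL, and the intervals of 79.4 to 93.8 and 23.3 to 31.5 lay far apart. The log2 ratio was 1.63, or 3.18-fold higher, and stood 323rd from the highest among the 13741 genes. Relative to the median gene the count share gave 1.66, with an interval of 1.41 to 1.91.

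IFI6, the membrane protein, was also higher in KD. It was at 15.9 FPKM (130 counts) in KD and 7.89 (64 counts) in CTRL. Its plain FPKM ratio was 2.02-fold, and with 1 FPKM added the log2 ratio was 0.93. Relative to the median gene the interval was 0.56 to 1.46.

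IFI27, the relative of IFI6, was close to absent. It was at 0.329 FPKM in KD and 0.0706 in CTRL, from 2 counts in each column. No ratio was computed, since both columns were under the floor of 3 counts. The equal counts gave FPKM values 4.67 times apart, so the FPKM difference of IFI27 carries no difference in reads.

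**Figure D3:**
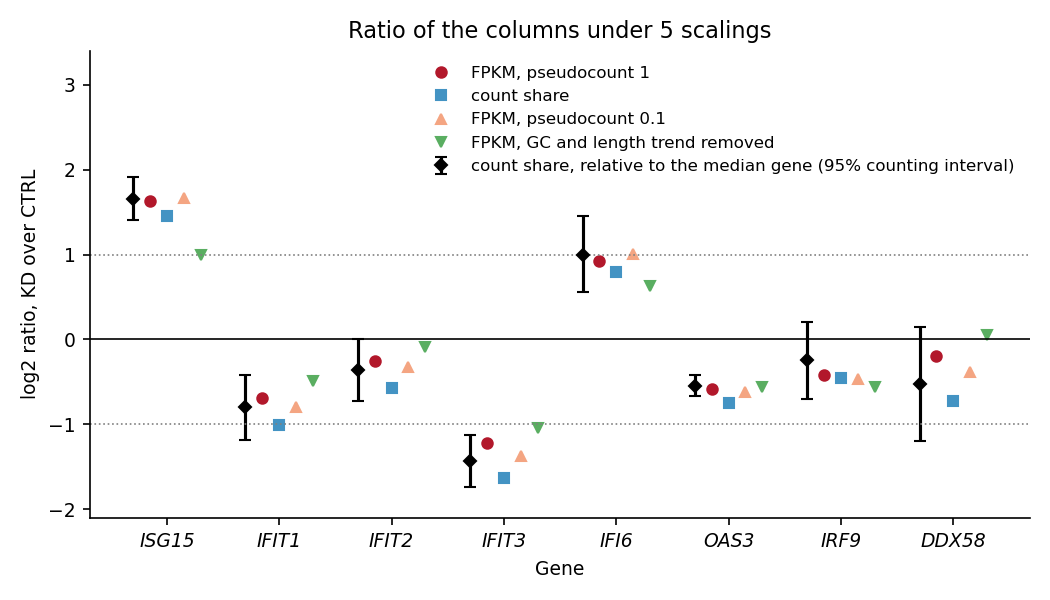
Log2 ratio of KD to CTRL for the members under 5 scalings, with bars for the 95% counting interval of the count share relative to the median gene. On the scale with bars ISG15 (1.66) and IFI6 (1.0) lie above 0, IFIT1, IFIT3 and OAS3 lie below it, and those of IFIT2, IRF9 and DDX58 hold 0.

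The members were then read against the whole table. On the FPKM + 1 scale 1 of the 7 members past the filter was over 2-fold higher in KD (ISG15), where 8.51% of the 13741 genes were, and 1 was over 2-fold lower (IFIT3), where 3.27% were. By plain count share ISG15 was again over 2-fold higher (7.20% of all genes), and IFIT1 and IFIT3 were over 2-fold lower (10.1%). Relative to the median gene IFIT1 was at -0.80, within 2-fold, and IFI6 was at 1.0. The scale moved the share of 2-fold differences that were higher in KD from 72.2% by FPKM to 41.8% by plain count share. The latter includes the offset of the median gene (-0.21). By the counting interval relative to the median, 2 members were higher (ISG15 and IFI6) where 33.1% of genes were, 3 were lower (IFIT1, IFIT3 and OAS3) where 31.2% were, and 2 held the median (IFIT2 and IRF9). With 7 genes these counts were close to the background, and no common direction was seen in the set.

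Differences between members do not depend on how the columns are scaled, since each pair's ratio is taken within the same columns. Over the 28 pairs of the 8 members with more than 3 counts, 18 ratios of count ratios had a 95% interval that left out 1. The share of such pairs over all genes was not computed. Intervals of single genes left out the median on the higher side for 33.1% of the 13741 genes and on the lower side for 31.2%. Separation beyond counting error was thus common in these columns and is not particular to the members. The KD to CTRL count ratio of ISG15 was 8.47 times that of IFIT3 (6.42 to 11.2), 5.49 times that of IFIT1 (4.0 to 7.54) and 4.60 times that of OAS3 (3.8 to 5.6). That of IFI6 was 5.37 times that of IFIT3 (3.67 to 7.88). ISG15 exceeded IFI6 itself by 1.58 times (1.10 to 2.25). ISG15 and IFI6 thus stood apart from each of the other 6 members by more than counting error.

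Among those 6, IFIT3 stood apart from each of the other 5. The count ratio of IFIT2 was 2.09 times that of IFIT3 (1.5 to 2.93), and that of IFIT1 was 1.54 times (1.09 to 2.17), so these genes of 1 cluster did not share 1 ratio. IFIT2 and IFIT1 were not separated, at 1.36 times (0.937 to 1.96). The 10 pairs among IFIT1, IFIT2, OAS3, IRF9 and DDX58 all held 1. The intervals are too wide for that to show equal ratios.

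The promoter motif did not divide the members by direction. The ISRE core was in the windows of both members that were higher in KD (ISG15 and IFI6) and of all 3 that were lower by the interval (IFIT1, IFIT3 and OAS3). Of the 2 that held the median, IRF9 had the GAS alone and IFIT2 was without a window.

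Base composition and length moved with the ratio over all genes, and the 2 members higher in KD were the shortest and most GC-rich, while the others did not follow the order of GC content. Across 13298 genes with a transcript sequence, the log2 ratio had a Spearman correlation of 0.445 with the GC content of the longest transcript and -0.160 with its length. These points share both columns and are given as a description. The median log2 ratio was -0.24 in the lowest of 4 equal GC classes, and -0.13, 0.09 and 0.47 in the next 3. Those were ISG15 (787 nt, 63.4% GC) and IFI6 (911 nt, 56.4%). IFIT1, IFIT2 and IFIT3 had 42.2%, 42.8% and 43.1% GC over 4613, 3703 and 4013 nt, and DDX58 had 39.8% over 4961 nt. OAS3 (9696 nt, 51.2%) and IRF9 (4603 nt, 53.9%) lay between.

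With a fitted curve in GC content and transcript length (quadratic in GC and in log2 nt) subtracted, the members moved closer together but kept their order at both ends. ISG15 went from 1.63 to 0.99 and IFI6 from 0.93 to 0.63. IFIT3 went from -1.21 to -1.04, IFIT1 from -0.68 to -0.49 and IFIT2 from -0.26 to -0.08. OAS3 was at -0.55 and IRF9 at -0.56 after the subtraction, against -0.58 and -0.42 before. DDX58 changed sign, from -0.19 to 0.05. IFIT1, IFIT2, IFIT3, OAS3 and IRF9 thus stayed negative. Whether GC content or length acted on the libraries was not tested.

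**Figure D4:**
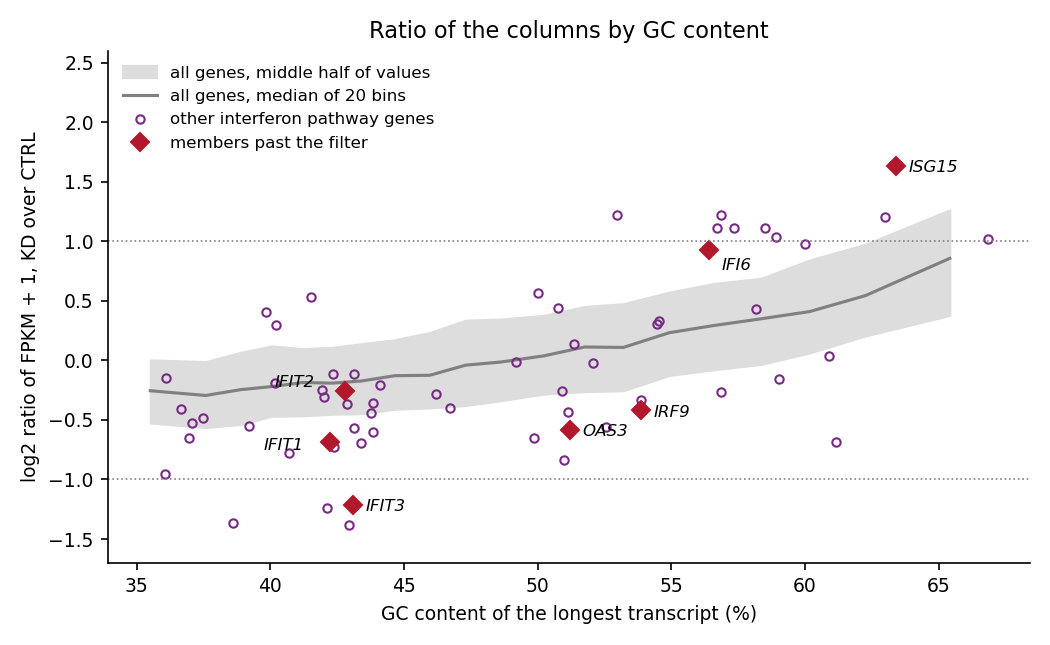
Log2 ratio of KD to CTRL (FPKM + 1) against GC content of the longest transcript in percent, with the 7 members past the filter as diamonds, other interferon pathway genes as circles, and the median and middle 50% of all genes in 20 GC bins as line and band. ISG15 and IFI6 lie above the band at the GC-rich end. IFIT3 lies below it at 43.1% GC, as do IFIT1, OAS3 and IRF9, and IFIT2 lies within it.

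The rest of the pathway was described from lists of 106 further genes, of which 57 passed the filter. In all, 8 were over 2-fold higher in KD and 3 over 2-fold lower by FPKM. These numbers were 1 and 9 by plain count share and 1 and 4 with the trend removed. The shares over all genes were 8.51% and 3.27% by FPKM, and 7.20% and 10.1% by count share. By the interval relative to the median, 14 of the 57 were higher, where 33.1% of all genes were, 27 were lower, where 31.2% were, and 16 held it. The balance of higher and lower thus turned with the scale, and the plain count-share calls include the offset of the median gene (-0.21).

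The ligands were nearly silent. Of 21 interferon genes, 19 had no reads in either column, and the others had at most 5 counts (IFNE with 3 and 5, IFNK with 2 in each). K562 cells are known to have lost the part of chromosome 9 that carries the type I interferon genes with CDKN2A and MTAP. In this table CDKN2A was at 342 FPKM in KD and 294 in CTRL (2707 and 2102 counts), and MTAP was at 11.3 and 15.3. KLHL9, which lies among the type I interferon genes, was at 8.04 and 6.95. These 3 genes were chosen after their values were seen, and why they were read here was not tested.

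The receptor and its kinases were present in both columns. IFNAR1 was at 17.1 FPKM in KD and 22.4 in CTRL (log2 ratio -0.37), and IFNAR2 at 27.8 and 35.9 (-0.36). JAK1 was at 39.6 and 52.5 (-0.40), while TYK2 was at 69.9 and 67.9 (0.04). None of the 5 receptor genes past the filter was 2-fold apart by FPKM + 1. By plain count share IFNAR1 was over 2-fold lower (587 and 1111 counts, log2 ratio -1.15, 95% interval -1.30 to -1.005). Relative to the median gene it was at -0.94 (-1.09 to -0.80), within 2-fold. Its count difference was larger than its FPKM difference on both scales.

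STAT2, a partner of IRF9 in ISGF3, was lower in KD, as IRF9 was by FPKM. It was at 7.65 FPKM in KD and 14.4 in CTRL (log2 ratio -0.83). IRF7, the factor that drives interferon alpha genes, was at 19.4 and 9.09 (1.02), the 1 of 10 signalling kinases and factors past 2-fold by FPKM + 1. By plain count share none was over 2-fold higher and STAT2 was over 2-fold lower (230 and 443 counts, log2 ratio -1.18). By count share relative to the median gene IRF7 was at 1.21 and STAT2 at -0.97. With the trend removed IRF7 was at 0.18. Of 6 inhibitors of the pathway past the filter, none was past 2-fold by FPKM + 1 or plain count share. SOCS3, which inhibits JAK kinases and was chosen after its value was seen, came closest, at 9.66 and 4.42 FPKM. That was 2.19-fold by the plain ratio and 0.98 on the log2 scale with 1 FPKM added. Its count share relative to the median gene gave 1.11.

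Around DDX58, 10 of 16 other sensors and adaptors passed the filter. TICAM1, the adaptor of Toll-like receptor 3, was at 30.8 FPKM in KD and 12.8 in CTRL (log2 ratio 1.20), and the other 9 were within 2-fold. With the trend removed TICAM1 was at 0.60.

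The enzymes that attach ISG15 to proteins and remove it were low in both columns. The activating enzyme UBA7 had 1 count in KD and 3 in CTRL, and the conjugating enzyme UBE2L6 was listed at 0 in both. The ligase HERC5 was at 1.22 and 1.55 FPKM, and its relative HERC6 at 0.220 and 0.698 (10 and 31 counts). USP18, which removes ISG15, was at 2.44 and 2.73 FPKM (60 and 67 counts). The 3.18-fold higher level of ISG15 in KD was thus not accompanied by a 2-fold difference in either of the 2 of these genes that passed the filter, HERC5 and USP18.

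Relatives of the members repeated both directions, and of those past the filter none was past 2-fold by plain count share. Relative to the median gene the count share of IFI27L2 gave 1.14. OAS1 was at 31.1 FPKM in KD and 54.0 in CTRL (log2 ratio -0.78), close to OAS3 at -0.58, while OASL was at 1.56 and 1.32 and OAS2 had 1 count in each column. IFIT5 was at 6.15 and 8.99 (-0.48), between IFIT1 and IFIT2, and IFIT1B was listed at 0 in both. IFI27L2 was at 29.4 and 13.0 (1.12) and IFI27L1 at 15.1 and 12.01 (0.30), both far above IFI27 itself.

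Among 32 other effectors, 20 passed the filter, 5 of them over 2-fold higher in KD and 3 over 2-fold lower by FPKM + 1. By plain count share 0 were higher and 7 lower. With the trend removed 1 was higher (ISG20, at 1.13) and 4 were lower (IFI16, SP100, NMI and LGALS3BP). On that scale IFITM2 was at 0.90, BST2 at 0.77, IFI35 at 0.72 and IFITM3 at 0.62, all within 2-fold. By count share relative to the median gene, IFITM2 (1.21), IFITM3 (1.06), BST2 (1.11) and IFI35 (1.16) were over 2-fold higher. On that scale IFI16 (-1.45), SP100 (-1.55), NMI (-1.65), SAMD9 (-1.73) and LGALS3BP (-1.23) were over 2-fold lower. By the interval relative to the median 5 were higher and 13 lower. IFITM2 was at 598 FPKM in KD and 257 in CTRL (log2 ratio 1.22) and IFITM3 at 735 and 358 (1.03), both membrane proteins that block virus entry. BST2, which tethers budding virus, was at 329 and 152 (1.11), and IFI35 at 65.9 and 30.01 (1.11). ISG20, the fifth, had 22 counts in KD and 18 in CTRL, and its interval held equal shares. On the other side were the DNA sensor IFI16 at 4.12 and 12.2 (-1.37), the nuclear body protein SP100 at 10.1 and 25.4 (-1.24), and NMI at 2.87 and 9.06 (-1.38).

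The pathway genes past 2-fold by FPKM divided by GC content, while their lengths overlapped. The 7 that were higher with an interval on the same side (IRF7, TICAM1, IFI27L2, IFI35, IFITM2, IFITM3 and BST2) had 56.7% to 66.8% GC and 938 to 2684 nt. The 3 that were lower had 38.6% to 42.9% GC and 2094 to 5414 nt. The ISRE core was in 2 of the 5 higher genes with a promoter window (IFITM3 and BST2), in 1 of the 3 lower ones (NMI) and in 16 of the 44 pathway genes with a window that passed the filter.

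**Figure D5:**
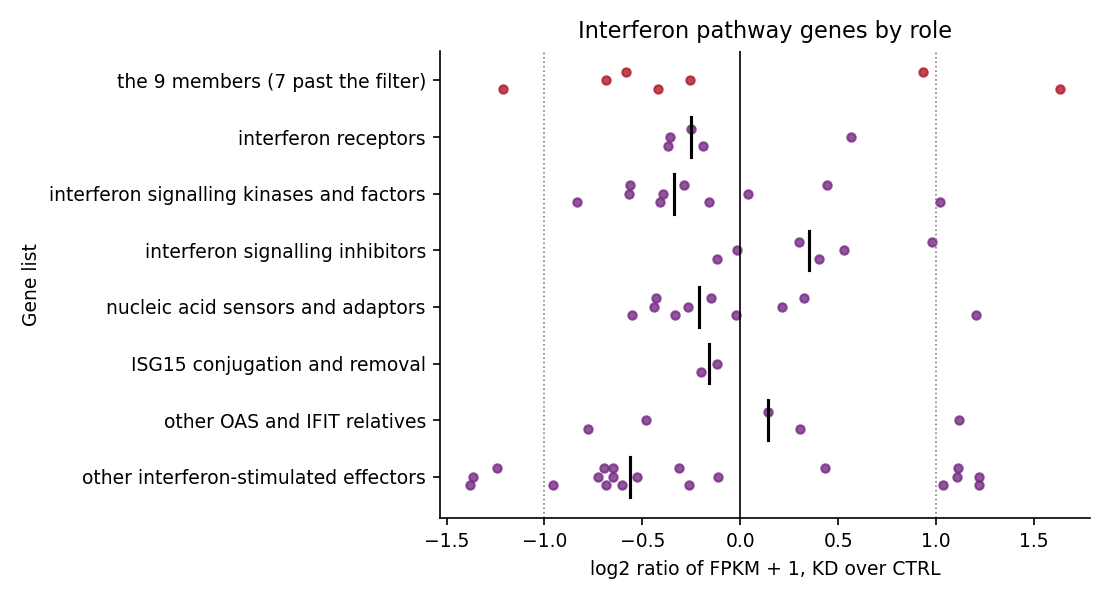
Log2 ratio of KD to CTRL (FPKM + 1) of each gene past the filter, by pathway list, 1 point per gene, with a bar at the median of each list other than the members. The members span from -1.21 to 1.63, and dotted lines mark 2-fold.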

How the data were processed

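RNA was sequenced from 6 libraries of K562 cells, 3 per group. The authors mapped reads to hg19 with TopHat 1.4.1 and made the values with Cuffdiff 2.2.0 (submitters' processing notes). The deposited table holds FPKM and estimated counts, 1 of each per gene and group. How the libraries were combined is not given in the sources used here. Its columns of fold changes, p-values, adjusted values and status were not used, nor were 4 further value columns. The members and lists were chosen with earlier results of these data known. Log2 ratios used FPKM + 1, and genes needed a mean of at least 1 FPKM. Intervals were exact 95% Poisson or binomial (counts rounded to whole numbers). With 1 value per group no replicate spread could be estimated, so no test was run. All members were named, with PCBP1, PCBP2, STAT2, IFNAR1, IFNAR2, JAK1, TYK2, the ISG15 enzymes, the OAS and IFIT relatives, and other genes of the pathway lists past 2-fold by FPKM + 1 whose interval left out equal shares on that side. Alternatives were another pseudocount, filters, scalings and a GC and length correction. Calculations used Python 3.11.15, numpy 2.4.6, pandas 2.3.3 and scipy 1.17.1, and were tested on simulated data. The sequences are from RefSeq, and gene models from GENCODE 44 on GRCh37. Results for some listed genes are not reported here.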

Additional observations from a re-analysis of the deposited data

How the results depend on the processing

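The number of members over 2-fold higher in KD was 1 on the FPKM + 1 scale. It was 2 with a pseudocount of 0.1 and 2 with median-of-ratios size factors (IFI6 joined ISG15 in both), and 0 with the GC and length trend removed, which put ISG15 at 0.99. The number over 2-fold lower was 1, and 2 with counts divided by column totals (IFIT1 joined IFIT3). Both counts stayed at 1 with ratios centred on the median, with no filter and with a filter of 5 FPKM in at least 1 group. Summing the rows of a symbol changed nothing, as each member has 1 row. ISG15 ranged from 0.99 to 1.68 over these settings and IFIT3 from -1.63 to -1.04, and DDX58 alone changed sign, to 0.05 with the trend removed. Low estimated counts limit DDX58 (34 and 48 counts) and IFI27 (2 and 2). No paired analysis was possible because the libraries of a group share 1 value. Leaving out each replicate was not run for the same reason.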
